A study of Mus musculus with 12 samples.

Results

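The 9 entries of a mouse microRNA (miRNA) array described here are mmu-miR-720, mmu-miR-709, mmu-miR-712, mmu-miR-715, mmu-miR-689, mmu-miR-705, mmu-miR-718, mmu-miR-1895 and mmu-miR-1897-5p, where mmu stands for the mouse and is left out below. They are entries thought to come from transfer RNA, ribosomal RNA or other transcripts that are not miRNA genes, and they were chosen by their names and also for their variation on these arrays. They make up 9 of the 611 mouse entries and of the 650 entries in all, the others being 39 of viruses.

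The livers came from adult mice kept on a 12-h light and 12-h dark schedule with free access to food and water; neither strain nor sex nor any genetic change is given in the labels. Zeitgeber time (ZT) counts hours from lights on. Livers were taken every 4 h over 2 days, 2 livers were pooled for each time point, and each of the 12 pools of total liver RNA was hybridised to 1 single-colour array. The 6 dark arrays were those at ZT18, ZT22, ZT38, ZT42, ZT46 and ZT62, and the 6 light arrays those at ZT26, ZT30, ZT34, ZT50, ZT54 and ZT58. Arrays 24 h apart share a clock time, so each of the 6 clock times has 2 arrays, 1 in each cycle. The spread given for a phase therefore holds the differences between clock times, between cycles and between pools, and a pool hides the spread between animals.

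Slide 1 held the 8 arrays up to ZT46, 5 dark and 3 light, and slide 2 the 4 later arrays, 1 dark and 3 light. Signals are background-subtracted intensities, scaled between arrays and given in scaled intensity units, and a floor of 22.2 units was set before taking log2. A probe counted as detected on an array where over 50% of its spots were well above background. On slide 2 the dim spots scattered more: the SD over the spots of a probe that was never detected lay between 3.93 and 8.59 units on slide 2, highest on the ZT50 array, against 2.38 to 4.52 units on slide 1. All 5 hepatocyte markers on a list made for this tissue (miR-122, miR-192, miR-194, miR-148a and miR-101a) were detected on all 12 arrays. So were 2 of 2 endothelial, 2 of 3 red cell, 3 of 4 leukocyte and 2 of 3 mesenchymal markers, whereas none of 8 striated muscle, neuronal and pancreatic markers was detected on any array.

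An miRNA is cut from a hairpin in its primary transcript by Drosha and then Dicer, loaded into an Argonaute protein and guided to messenger RNAs mainly by its seed, the bases near its front end. Short fragments of transfer RNA and ribosomal RNA are abundant in cells and can be taken for miRNAs when small RNAs are cloned. miR-720 is the best known case: its sequence matches the end of a threonine transfer RNA and it is no longer accepted as an miRNA. miR-712 has been described in mouse endothelium as a product of the internal spacer of the ribosomal RNA precursor, made in response to disturbed blood flow and acting on Timp3, an inhibitor of matrix metalloproteinases. miR-709 has been described in mouse cells as a nuclear miRNA that binds the primary transcript of miR-15a and miR-16. No role is given here for the other 6 entries.

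The RefSeq table for mouse build GRCm38.p6 held mature sequences for 3 of the 9 entries and hairpins for 4. The mature sequences are shown because the entries differ most plainly in base composition; capitals mark the seed, bases 2 to 8.
miR-705: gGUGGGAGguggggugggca
miR-718: cUUCCGCCcggccgggugucg
miR-1895: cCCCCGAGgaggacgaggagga
miR-705 lies at chr6:85336341-85336360 on the minus strand, miR-718 at chrX:74023857-74023877 on the minus strand and miR-1895 at chr3:134240515-134240536 on the minus strand. miR-718 is 81.0% G and C, above 98.9% of the 1738 mature mouse sequences in the table, whose median is 52.2%. miR-705 is 75% G and C and 70% G, a G content above 99.9% of the table. miR-1895 is 72.7% G and C, above 96.8% of the table. All 3 are thus G and C rich for a mouse miRNA, but only miR-705 and miR-1895 are mostly purine (A or G), at 80% and 72.7%, while miR-718 has 38.1%. The seed of miR-705 is shared by 3 other mouse miRNAs listed there (miR-6922-5p, miR-6993-5p and miR-7008-5p), and that of miR-718 or miR-1895 by none.

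The hairpins of miR-1895 and miR-1897 are shown because these 2 entries turned out to vary together. Capitals mark the mature sequence the table lists, which for Mir1897 is the other arm, miR-1897-3p.
Mir1895: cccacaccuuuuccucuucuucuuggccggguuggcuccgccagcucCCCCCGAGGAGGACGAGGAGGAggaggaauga
Mir1897: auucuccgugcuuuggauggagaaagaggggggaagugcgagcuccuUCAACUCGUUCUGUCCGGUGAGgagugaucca
Mir1895 lies at chr3:134240505-134240583 on the minus strand and Mir1897 at chr3:34638464-34638542 on the plus strand. The longest unbroken runs of purines in these hairpins are 15 and 18 bases, longer than in 98.4% and 99.6% of the 1005 hairpins in the table, whose median is 6. The run of Mir1895 goes on past the mature sequence. Within mature miR-1895 the longest run is 8 bases, longer than in 92.2% of the mature sequences. Folding gave a minimum free energy of -42.6 kcal/mol for Mir1895, and 9.65% of the hairpins were more stable per base. For Mir1897 it gave -27.4 kcal/mol, and 72.6% of the hairpins were more stable per base. Mir705 (-40.8 kcal/mol) and Mir718 (-54.4 kcal/mol) also folded into stable structures, with 16.6% and 3.58% of the hairpins more stable.

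For 5 of the entries there is a gene in the RefSeq annotation, and each of these genes overlaps the span of another gene. Whether it lies wholly inside was not examined, and the strand of the other gene is not given there. Mir709 overlaps Rfx1, a transcription factor. Mir705 overlaps Rab11fip5, a protein of membrane recycling. Mir718 overlaps Irak1, a kinase of Toll-like receptor signalling. Mir1895 overlaps Cxxc4, an inhibitor of Wnt signalling, and Mir1897 the long noncoding RNA Sox2ot.

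The entries differed first in how well the array measured them. The 9 entries have 26 probes between them, of which 6 were detected on all 12 arrays, 10 on some and 10 on none. The feature extraction software, which calls an entry from all its probes, detected miR-720, miR-709, miR-712, miR-689 and miR-1895 on all 12 arrays. It called miR-1897-5p on 11 arrays, miR-705 on 9, miR-718 on 8 and miR-715 on 6. Entries called on at least 6 arrays were tested, 139 in all, so all 9 entries entered the tests, miR-715 at the limit. By its brightest probe, the one used below, miR-1895 was detected on 11 arrays, miR-705 and miR-718 on 6 each, miR-1897-5p on 5 and miR-715 on none. The brightest probe was never at the floor for miR-720, miR-709, miR-712, miR-689 and miR-1895, and was at the floor on 5 arrays for miR-705, 6 for miR-718, 7 for miR-1897-5p and 11 for miR-715. Levels of different probes cannot be set against each other.

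**Figure D1:**
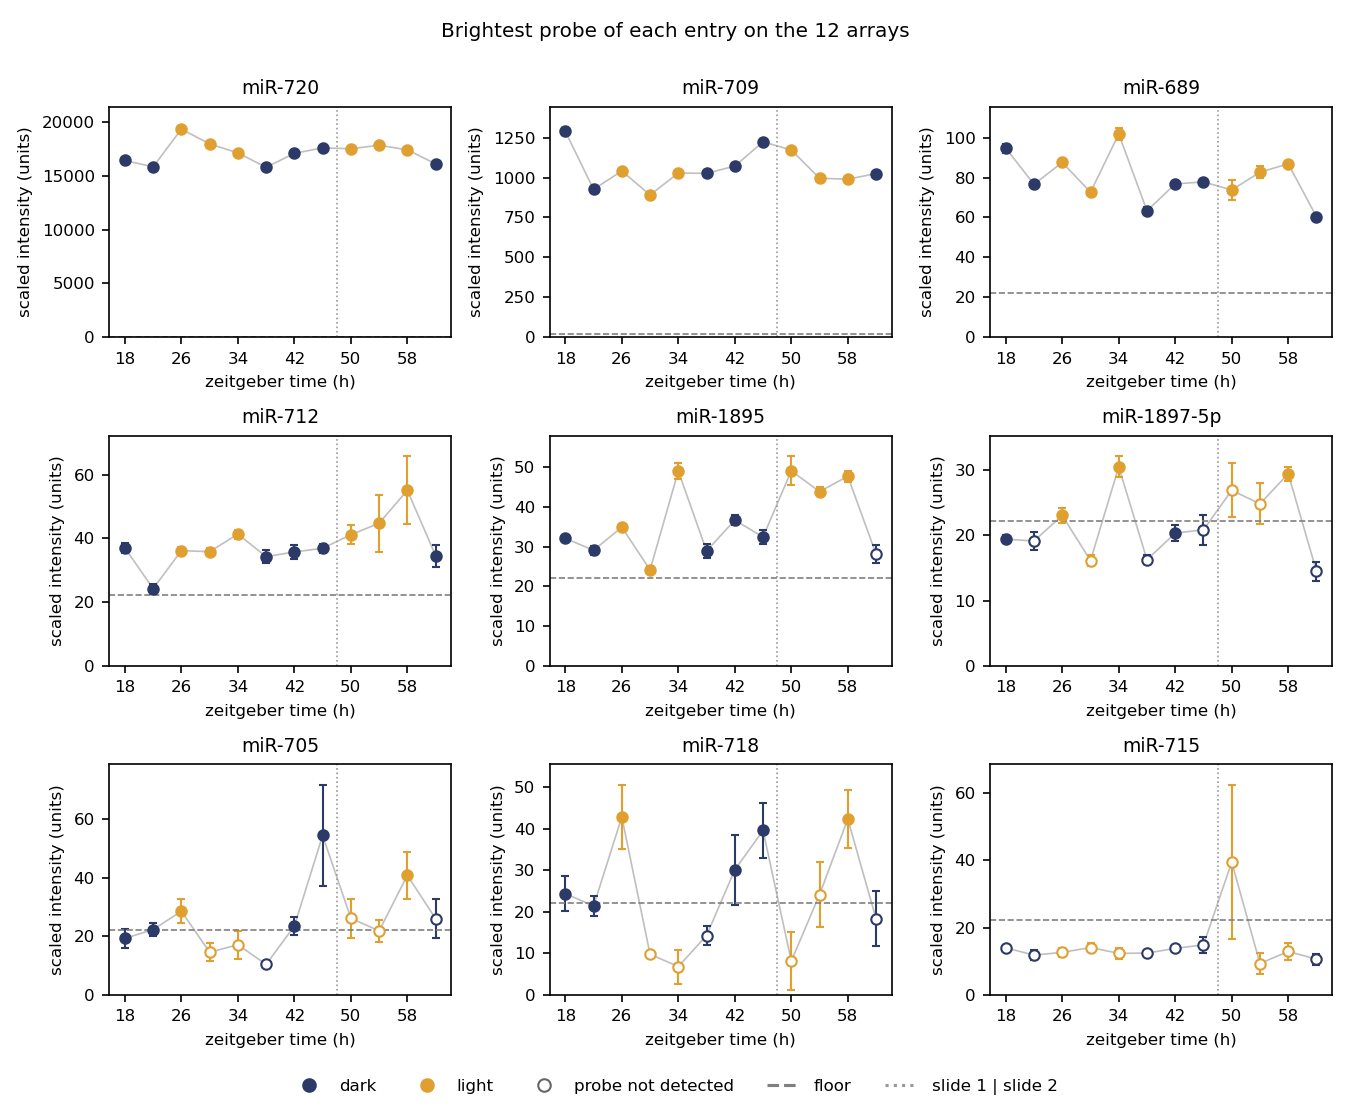
Scaled intensity of the brightest probe of each entry (y axis, units) against zeitgeber time in hours (x axis), with the standard error over the probe's spots as bars, dark arrays in blue, light arrays in orange and open symbols where the probe was not detected. miR-720 stayed between 15791 and 19347 units, while miR-705 and miR-718 crossed the floor of 22.2 units back and forth and miR-715 passed it on the ZT50 array only.

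miR-720 was the steadiest of the 9. Its brightest probe measured 15791, 16270 and 17603 units on the dark arrays (lowest, median and highest), against 17136, 17681 and 19347 units on the light arrays. Of the 6 dark arrays 5 lay below all light arrays; the dark ZT46 array was the exception. The highest array was over the lowest by 1.23-fold, and the SD over all 12 arrays was 0.09 log2 units, rank 89 of 139 tested entries by spread. For comparison, the liver miRNA miR-122 had a ratio of 1.12 between its highest and lowest arrays, let-7a 1.11 and miR-16 1.10. The median standard error over the spots of miR-720 was 0.836% of its value, which covers the noise of spots within an array and not the spread between pools. Single spots scattered more: those kept at ZT18 ran from 14839 to 17099 units.

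The 2 probes of miR-720 followed each other over the 12 arrays with Pearson r = 0.92 and Spearman rho = 0.92 (permutation p = 2e-05 and 7e-05, 100000 draws, two-sided, adjusted p = 6e-05 and 2.1e-04 over 3 probe pairs). Without the 2 arrays farthest from the median r was 0.91, and within slide 1 it was 0.93. Both probes had their highest value at ZT26, 19347 and 3575 units. The second probe was lowest at ZT22, with 2763 units, and the brightest at ZT38, with 15791 units. Averaged over the 2 arrays of a clock time, miR-720 was highest at 2 h and lowest at 14 h after lights on, a span of 1.15-fold.

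miR-709 measured 926, 1049 and 1289 units on the dark arrays (lowest, median and highest), against 891, 1012 and 1173 units on the light arrays. The phases overlapped throughout: no light array lay above the highest dark array and no dark array below the lowest light array. Its highest array was ZT18 and its lowest ZT30. Its 2 probes gave r = 0.91 and rho = 0.87 (permutation p = 6e-05 and 3.5e-04, adjusted p = 9e-05 and 5.25e-04 over 3 probe pairs), with r = 0.88 without the 2 farthest arrays and 0.94 within slide 1. The swing between ZT18 and ZT22, 1289 and 926 units on the brightest probe and 177 and 123 units on the other, was thus seen by both probes.

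miR-689 measured 60.4, 76.7 and 94.7 units on the dark arrays, against 72.6, 84.8 and 102 units on the light arrays. The dark arrays ZT38 and ZT62 lay below all light arrays, and these are the 2 arrays at 14 h. Averaged by clock time it was lowest at 14 h and highest at 10 h, a span of 1.52-fold. Its 2 probes gave r = 0.87 and rho = 0.80 (permutation p = 3.4e-04 and 0.00308, the same after adjustment over 3 probe pairs); r was 0.83 without the 2 farthest arrays and 0.94 within slide 1. Thus 3 of 3 probe pairs that stayed above the floor throughout passed the test.

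miR-712 rested on 1 of its 4 probes. That probe measured 24.2, 35.2 and 37.0 units on the dark arrays, against 35.8, 41.3 and 55.1 units on the light arrays. Of the light arrays 4 lay above all dark arrays, and 4 dark arrays below all light arrays. A second probe was detected on 2 arrays and ranged from 14.02 to 22.6 units, and the other 2 probes had medians of -3.53 and -1.86 units and were detected on none. The 2 highest arrays, ZT54 and ZT58, owed their means to few of the 5 spots. At ZT58, where the mean was 55.1 units, spots at 69.5 and 90.1 units stood over the other 3 and the median spot was 41.4 units. At ZT54 a single spot of 80.0 units stood over a median of 39.3 units. The low ZT22 array did not rest on 1 spot, since all 5 of its spots lay between 21.7 and 30.3 units. The partner entry miR-712* was not detected on any array.

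miR-1895 measured 28.2, 30.6 and 36.7 units on the dark arrays, against 24.2, 45.8 and 49.1 units on the light arrays. The light arrays ZT34, ZT50, ZT54 and ZT58 stood above all dark arrays, but the light ZT30 array was the lowest of all 12. The 2 arrays at 10 h measured 47.7 units at ZT58 and 49.05 at ZT34, and the 2 at 14 h measured 28.2 units at ZT62 and 28.9 at ZT38. At 6 h the cycles parted, with 43.9 units at ZT54 and 24.2 at ZT30. At ZT58 and ZT34 all 10 spots were kept and the lowest read 40.8 and 41.4 units. At ZT38 all 10 were also kept and the highest read 38.3 units. At ZT62 the 8 spots kept reached 37.4 units, while 2 spots left out as outliers by the software read 60.9 and 72.5 units, above every spot at ZT58. Of these 4 high arrays 3 are on slide 2, whose median for miR-1895 was 45.8 units, against 32.3 units on slide 1.

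miR-1897-5p had a similar order of arrays near the floor. It measured 14.5, 19.3 and 20.9 units on the dark arrays, all below the floor, against 16.1, 25.9 and 30.5 units on the light arrays. Of the light arrays 5 lay above all dark arrays, the exception being ZT30. The 10 h arrays were the highest, 29.4 units at ZT58 and 30.5 units at ZT34, and the ZT62 array the lowest. Since its brightest probe was detected on 2 dark and 3 light arrays only, its log2 values after the floor give bounds for the dark arrays. The other arm, miR-1897-3p, was called on 3 arrays.

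**Figure D2:**
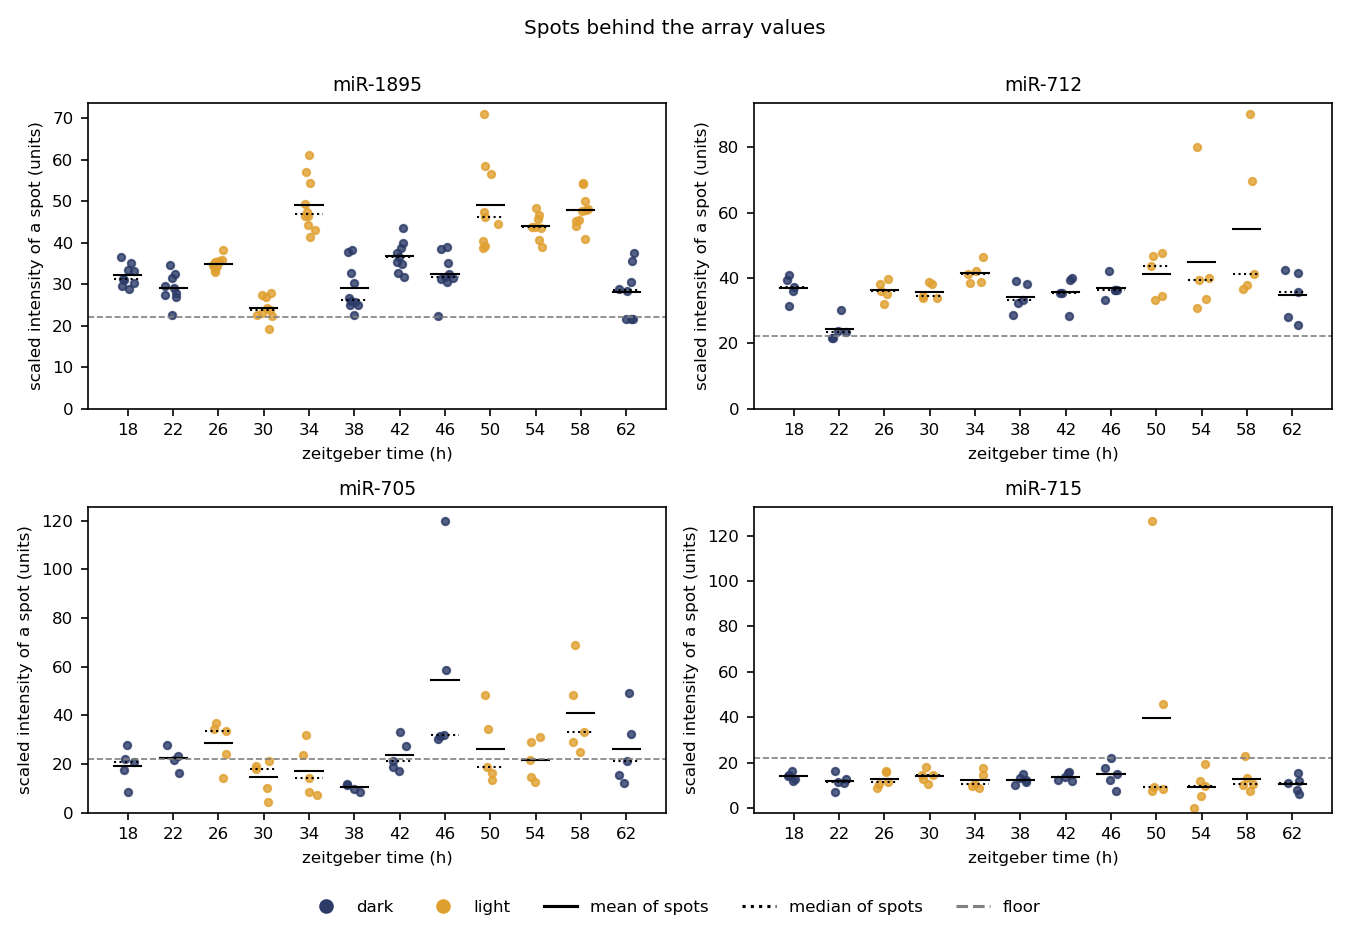
Scaled intensity of each spot kept (y axis, units) on each array by zeitgeber time in hours (x axis) for miR-1895, miR-712, miR-705 and miR-715, dark in blue and light in orange, with the mean of the spots as a solid line, their median as a dotted line and the floor dashed. The spots of miR-1895 at ZT34 and ZT38 did not overlap, whereas the ZT50 mean of miR-715 was set by 2 spots, at 46.04 and 126 units.

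miR-705 and miR-718 were detected on 6 arrays each, 4 dark and 2 light, and on the same 6: ZT18, ZT22, ZT26, ZT42, ZT46 and ZT58. miR-705 measured 10.4, 22.9 and 54.5 units on the dark arrays, against 14.5, 23.99 and 40.8 units on the light arrays. miR-718 measured 14.2, 22.8 and 39.5 units on the dark arrays, against 6.77, 16.9 and 42.8 units on the light arrays. Dark and light overlapped for both. The 3 arrays with the highest values were the same for both entries, ZT26, ZT46 and ZT58, and they fall at clock times of 2, 22 and 10 h. Most of the arrays 24 h from them did not match. miR-718 measured 8.09 units at ZT50 and 42.8 units at ZT26, and 42.3 units at ZT58 and 6.77 units at ZT34. At 22 h it measured 21.3 units at ZT22 and 39.5 units at ZT46. miR-705 measured 17.1 units at ZT34 and 40.8 units at ZT58, and 22.3 units at ZT22 and 54.5 units at ZT46. The 2 arrays of miR-705 at 2 h lay close, with 28.6 units at ZT26 and 26.2 units at ZT50. The spots of these 2 entries scattered widely, with median standard errors of 18.3% and 17.7% of the value, against 2.82% over all 139 tested entries. At ZT46 the mean of miR-705, 54.5 units, held a spot of 120 units, and the median spot was 32.1 units.

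miR-715 was not measurable on these arrays. None of its 4 probes was detected on any array. The brightest lay between 10.6 and 14.8 units on the dark arrays and between 9.29 and 39.5 units on the light arrays, where all but ZT50 were below the floor. At ZT50, 2 of 5 spots read 46.04 and 126 units while the median spot read 9.34 units, the lowest median of the 12 arrays. That array had the widest scatter of dim spots, and 34 of the 139 tested entries had their highest value on it; the part of the array in the value of miR-715 was not tested.

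**Figure D3:**
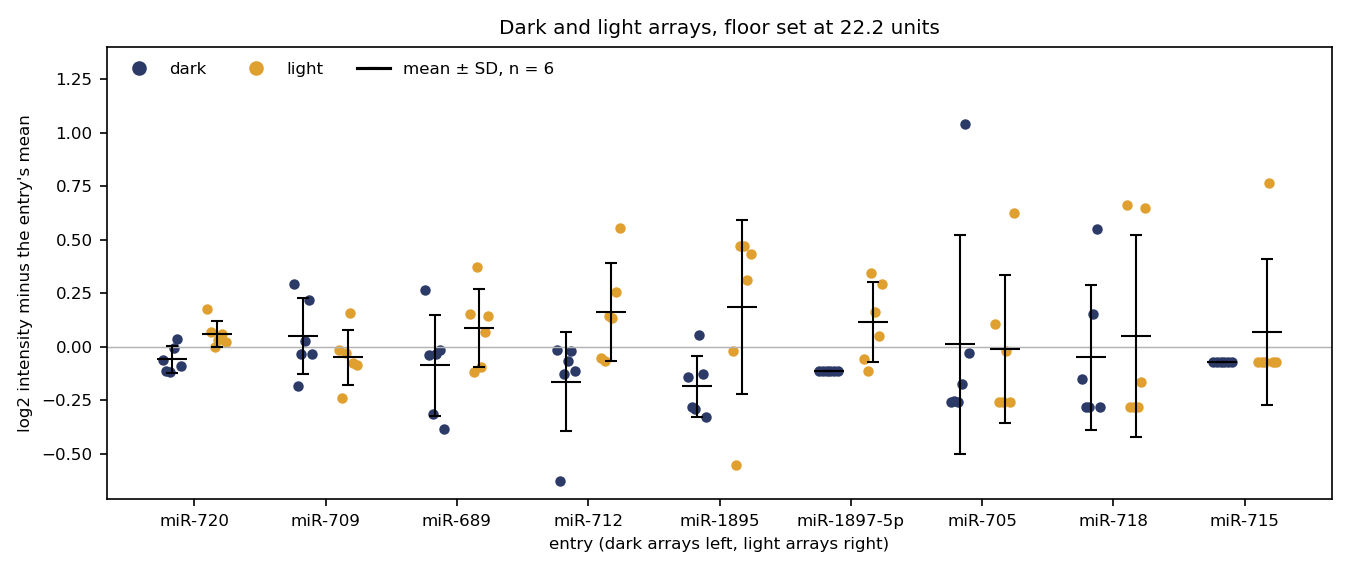
Log2 intensity of each entry minus its mean over the 12 arrays (y axis, log2 units), dark arrays left in blue and light arrays right in orange, with bars for the mean ± SD (n = 6 each) after the floor of 22.2 units was set. The phases overlap for most entries, and the flat rows of miR-1897-5p and miR-715 are arrays at the floor.

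The question the series asks is which liver miRNAs follow the day. In limma fits over all 139 tested entries, adjusted by Benjamini-Hochberg, 0% of the entries were called for dark against light, for a 24-h rhythm, for differences between clock times, for cycle 2 against cycle 1 or for a change of the dark and light difference between cycles. None of the 9 entries was called, and since they were chosen partly for their variation nothing is read from that count. At an unadjusted p under 0.05 the 5 fits held 11, 5, 6, 5 and 3 of the 139 entries. Leaving out single arrays changed some counts. Without ZT30 miR-1895 was 1 of 2 entries called for dark against light, and without ZT26 miR-1897-5p was 1 of 7 called for clock time. Without ZT46 2 entries were called for clock time and without ZT58 1 entry for a rhythm, none of the 9. ZT30 is the light array on which miR-1895 was lowest. Since the entries were chosen partly for their variation, nothing is read from these calls either.

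As a description, 7 of the 9 entries were lower in the dark, with a median dark minus light difference of -0.14 on the log2 scale. That median is the value of miR-715, an entry not detected by its probes, and rests on its ZT50 array alone. Over all 139 tested entries 92 were lower in the dark, with a median of -0.02. After the floor the widest differences were those of miR-1895, -0.37, and miR-712, -0.33, followed by miR-1897-5p at -0.23 and miR-689 at -0.18. The floor narrowed the difference of miR-1897-5p, whose 6 dark arrays all lay below it. Before the floor its medians were 19.3 units in the dark and 25.9 units in the light, so its place in this order is not settled. miR-1895 averaged 4.96 ± 0.14 in the dark and 5.33 ± 0.41 in the light (log2 units, SD, n = 6 each), and miR-712 averaged 5.06 ± 0.23 in the dark and 5.39 ± 0.23 in the light (SD, n = 6 each). miR-720 stood at -0.12, miR-715 at -0.14 from its single array above the floor, and miR-718 at -0.10. The sign of miR-718 rests on the floor. Without the floor its difference was 0.47, with the light arrays ZT30, ZT34 and ZT50 at 9.73, 6.77 and 8.09 units. The sign of miR-705, given next, also turned without the floor. miR-709 (0.10) and miR-705 (0.02) had positive differences. Within slide 1 the difference was -0.18 for miR-712, -0.13 for miR-720 and -0.16 for miR-689. For miR-1895 that is -0.12 within slide 1, against -0.37 over all arrays, and slide 2 held 3 of its 4 high arrays; the part of the slide was not tested.

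Averaged over the 2 arrays of a clock time, miR-712, miR-689, miR-1895 and miR-1897-5p were highest at 10 h after lights on. Of the 139 tested entries, 26 had their highest single array at ZT34 and 9 at ZT58, the arrays at 10 h. For miR-712 the 10 h value holds the ZT58 mean of 55.1 units, where the median spot was 41.4 units. Its 22 h value holds the low ZT22 array. The span between the lowest and highest clock times was 1.69-fold for miR-1895 (lowest at 14 h), 1.60-fold for miR-712 (lowest at 22 h) and 1.35-fold for miR-1897-5p. The last is a lower bound, because miR-1897-5p lay at the floor at 14, 18 and 22 h. miR-709 was highest at 18 h and lowest at 6 h, with a span of 1.25-fold. The clock times of miR-705, miR-718 and miR-715 rest on arrays at the floor and are not ranked.

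The scaling between arrays bears on the dark minus light differences. With no scaling and with quantile normalization 7 of the 9 entries stayed lower in the dark. A 75th percentile over all probes is set among dim probes, since 86.8% of the 1857 probes were detected on no array. With the 75th percentile taken over all probes, the median of all tested entries moved to 0.38 dark minus light, and 5 of the 7 negative differences (miR-720, miR-712, miR-689, miR-1895 and miR-718) turned positive, miR-715 went to 0 and miR-1897-5p was -0.06. Relative to the median of all tested entries under that scaling, miR-1895 stood at -0.34, miR-712 at -0.34, miR-689 at -0.12 and miR-720 at -0.06. With normexp background correction the median of all moved to -0.36. The differences themselves stayed negative, at -0.095 for miR-720, -0.54 for miR-1895 and -0.51 for miR-712. Relative to that median miR-720 stood at 0.26, while miR-1895 was at -0.18 and miR-712 at -0.15.

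Between the cycles, 8 of the 9 entries were higher in cycle 2 (ZT42 to ZT62), with a median difference of 0.14 on the log2 scale. The fit had clock time as a factor, which compares arrays 24 h apart. That median is again the value of miR-715 from the ZT50 array alone. With the slide as a block the cycle difference comes only from the pairs at 18 and 22 h, whose arrays are all on slide 1. miR-715 lay at the floor on those arrays, so its difference of 0 in that fit was fixed in advance. Over all 139 tested entries 83 were higher, with a median of 0.02. miR-705 was higher by 0.39, miR-1895 by 0.27, miR-712 by 0.25 and miR-718 by 0.21, while miR-689 stood at -0.11. This direction depended on the scaling: with the 75th percentile over all probes the median of all tested entries moved to -0.50, and only miR-705 and miR-718, 2 of the 9, were higher in cycle 2. Relative to that median miR-712 stood at 0.28, miR-1895 at 0.26, miR-720 at -0.02 and miR-689 at -0.14. With normexp background correction the median of all moved to 0.36. Relative to it miR-712 stood at 0.11, miR-1895 at 0.14, miR-720 at -0.36 and miR-689 at -0.07. The differences themselves were 0.47 for miR-712, 0.50 for miR-1895, -0.002 for miR-720 and 0.29 for miR-689. With no scaling 7 of the 9 were higher in cycle 2, and with quantile normalization 6. With the slide as a block, thus from the pairs at 18 and 22 h alone, 6 of the 9 were higher. In that fit miR-1897-5p, like miR-715, was held at 0 by the floor. miR-705 stood at 0.69 there, with 22.3 units at ZT22 and 54.5 units at ZT46. In the 6 pairs of arrays 24 h apart, miR-712 was higher in cycle 2 in 5, miR-720, miR-705, miR-718 and miR-1895 in 4 and miR-709 in 3. miR-689 and miR-1897-5p were higher in 2 and miR-715 in 1. These counts were made after the floor, and a pair with both arrays at the floor counts as not higher. That held for miR-1897-5p at 14, 18 and 22 h, miR-715 at all clock times but 2 h, miR-705 at 6 h and miR-718 at 14 h. Without the floor miR-1897-5p went from 16.3 to 14.5 units at 14 h, from 19.4 to 20.3 at 18 h and from 19.1 to 20.9 at 22 h. Of the 6 arrays of cycle 2, 4 are on slide 2, and of cycle 1 none. The median standard error over spots for the 9 entries was 11.2% on slide 2 and 4.13% on slide 1, against 3.31% and 2.48% over all tested entries.

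The rule that chose the entries names their variation on these arrays and not how they vary with each other, but they were chosen with earlier results of these arrays known. Among the 5 entries never at the floor, 9 of 10 pairs had a positive r over the 12 arrays, and none passed the permutation test after adjustment over the 10 pairs. At an unadjusted p under 0.05, 1 pair did on r and 2 on rho. The pair on both was miR-712 with miR-1895, with r = 0.69 and rho = 0.75 (permutation p = 0.00674 and 0.00707, adjusted p = 0.0674 and 0.0707). Its r was 0.82 without the 2 arrays farthest from the median and 0.48 within slide 1. With the median of the spots and no floor its rho was 0.90 and passed (adjusted p = 0.00378 over 36 pairs, permutation test), while its r of 0.65 did not (adjusted p = 0.109). The pair on rho alone was miR-712 with miR-689, with rho = 0.65 (permutation p = 0.0257, adjusted p = 0.129) and r = 0.36. miR-720 and miR-709 had r = -0.01. The count depended on the processing: on r, 3 of 10 pairs passed with normexp background correction, 3 of 15 with the floor at 0.5 times and 1 of 10 (miR-689 with miR-1895) with the slide as a block. On rho these counts were 3, 4 and 2, the second pair with the slide as a block being miR-712 with miR-689.

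**Figure D4:**
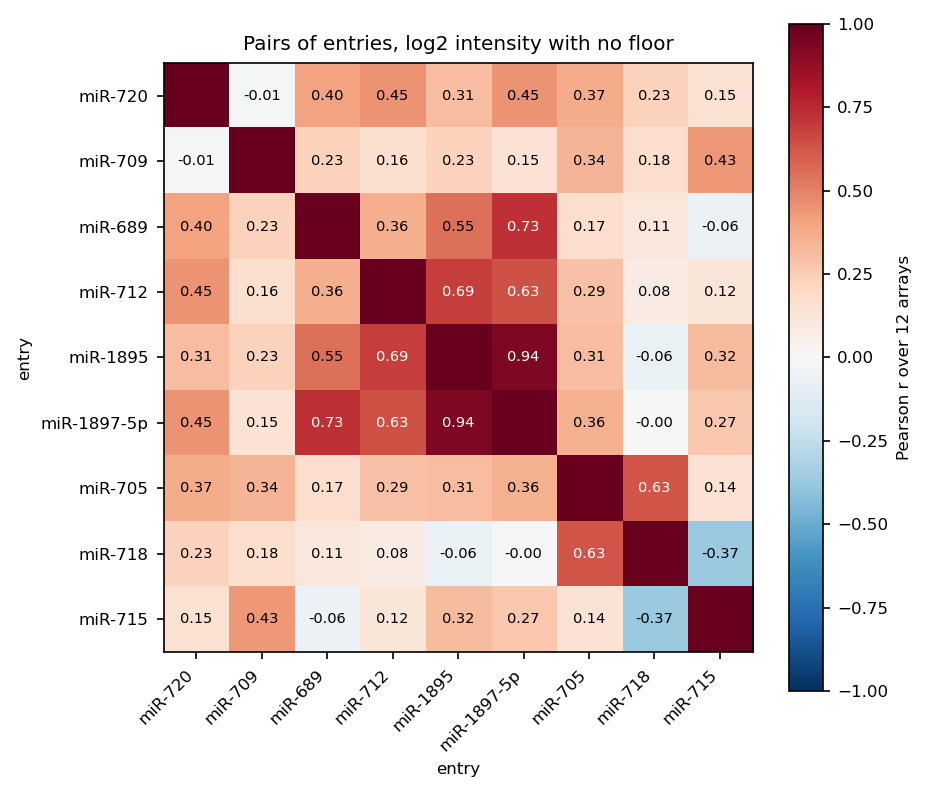
Pearson r over the 12 arrays for every pair of the 9 entries (rows and columns), computed on log2 intensity with no floor, from -1 in blue to 1 in red. miR-1895 and miR-1897-5p stand out at 0.94, with miR-689 and miR-712 nearest to them, and miR-705 with miR-718 form a second block at 0.63.

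Without the floor all 36 pairs could be compared. After adjustment 1 passed on r, miR-1895 with miR-1897-5p, and 2 on rho, the same pair and miR-712 with miR-1897-5p. For miR-1895 with miR-1897-5p r was 0.94 and rho 0.95 (permutation p = 1e-05 for each, the smallest that 100000 draws can give, adjusted p = 3.6e-04 for each). r was 0.91 without the 2 farthest arrays, 0.94 within slide 1, and between 0.92 and 0.95 when any 1 array was left out. With the median of the spots in place of the mean it was 0.87 (adjusted p = 0.00432 over 36 pairs). The 2 probes of one entry against the 2 of the other gave 4 values of r between 0.79 and 0.94. Among 138 tested entries, miR-1897-5p had the highest r with miR-1895, and miR-1895 the highest with miR-1897-5p. The median r with miR-1895 was 0.31. The pair did not stand far apart from all other entries. Outside the group, miR-101b was the most alike to both, among 124 tested entries that varied. Its r was 0.92 with miR-1895 and, without the floor, 0.85 with miR-1897-5p. Neither miR-101b nor miR-1895 was at the floor on any array, so both values compare directly with the 0.94. The r of miR-1895 with miR-1897-5p depended on the normalization: quantile normalization gave 0.57 and normexp 0.997. The software's total signal of an entry, which sums its probes, gave 0.73.

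The probes of each of these 2 dim entries also agreed within the entry, without the floor. The 2 probes of miR-1897-5p had r = 0.94 (permutation p = 2e-05, adjusted p = 1.4e-04 over 14 probe pairs) and the 2 of miR-1895 r = 0.92 (permutation p = 4e-05, adjusted p = 1.87e-04). Of the 14 probe pairs of all entries that stayed above 0, 6 passed: those of miR-720, miR-709, miR-689, miR-1895 and miR-1897-5p, and 1 of the 6 pairs of miR-705 (r = 0.70, adjusted p = 0.0232). The 2 probes of miR-718 that stayed high enough to compare did not pass (r = 0.54, adjusted p = 0.123).

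**Figure D5:**
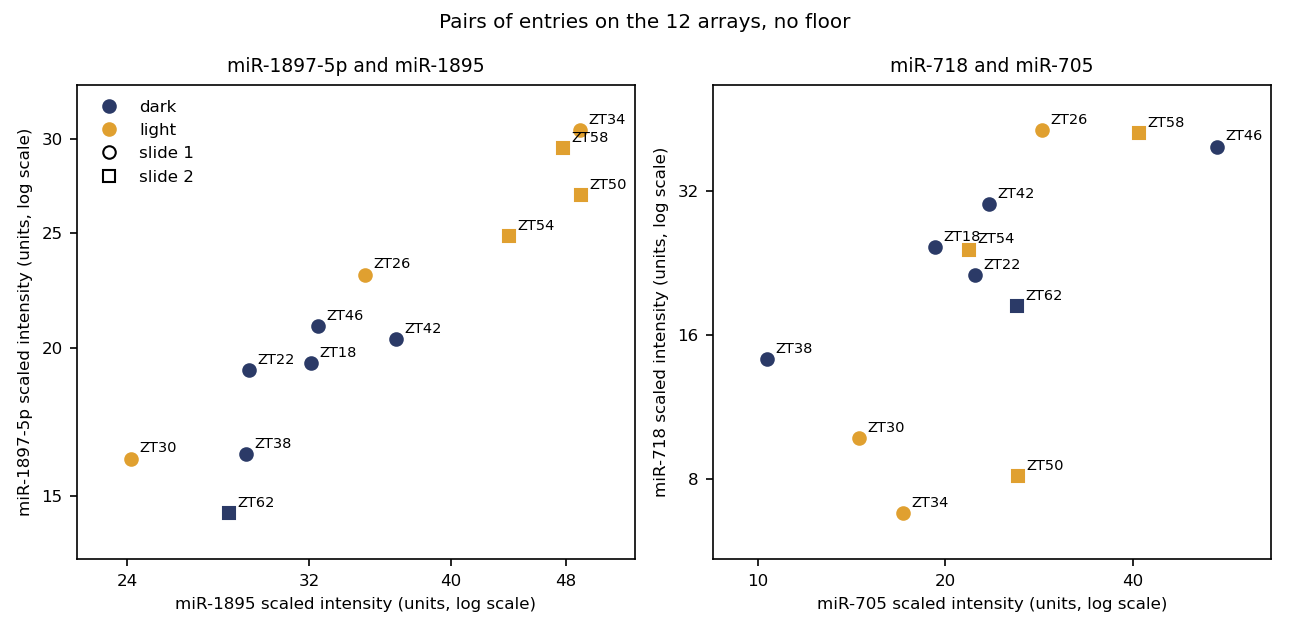
Left, miR-1897-5p against miR-1895, and right, miR-718 against miR-705, in scaled intensity units on log axes with no floor; each point is 1 of the 12 arrays, dark in blue and light in orange, slide 1 as circles and slide 2 as squares. The left pair follows a line from ZT30 and ZT62 at the bottom to ZT34 and ZT58 at the top (r = 0.94), and the right pair scatters more (r = 0.63).

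miR-712 with miR-1897-5p had rho = 0.83 (permutation p = 0.00147, adjusted p = 0.0265) and r = 0.63 (permutation p = 0.0209, adjusted p = 0.188). With the median of the spots its rho was 0.86 (adjusted p = 0.00612) and its r 0.51 (adjusted p = 0.341). Within slide 1 r was 0.41. miR-705 and miR-718 had r = 0.63 and rho = 0.64 without the floor, and did not pass (permutation p = 0.0268 and 0.0297, adjusted p = 0.193 and 0.178). With the median of the spots r was 0.64 and rho 0.82, and on ranks the pair then passed (adjusted p = 0.205 for r and 0.0168 for rho). With the median of the spots 4 of the 36 pairs passed on rho, the 3 among miR-712, miR-1895 and miR-1897-5p and this one, and 1 on r, miR-1895 with miR-1897-5p. miR-689 with miR-1897-5p had r = 0.73 (permutation p = 0.00639, adjusted p = 0.0809), falling to 0.49 without the 2 farthest arrays.

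Measures of the arrays themselves were set against the 5 entries never at the floor: the scaling factor (0.910 to 1.16), the share of spots well above background (16.5% to 19.6%) and the median local background (28 to 31 raw units). None of the 15 relations passed after adjustment, on r or on rho. At an unadjusted p under 0.05, 2 did on r and 3 on rho, the third being miR-709 with the scaling factor (rho = -0.63, permutation p = 0.0316). The 2 on r involved the local background, with r = -0.70 and rho = -0.66 for miR-1895 (permutation p = 0.0120 and 0.0213, adjusted p = 0.180 for r) and r = -0.61 and rho = -0.69 for miR-712 (permutation p = 0.0314 and 0.0151, adjusted p = 0.222 for r). Without the 2 farthest arrays these were -0.81 and -0.76, and within slide 1 both were -0.47.

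Outside the group, the entries most alike over the 12 arrays are given as a description among 124 tested entries that varied, all of which share the arrays, their labelling and their scaling. For miR-720 these were miR-148a (r = 0.67), miR-1198 (0.65) and miR-365 (0.64). For miR-709 they were miR-1224 (0.70), miR-15b (0.68) and the red cell miRNA miR-144 (0.66). For miR-689 they were miR-494 (0.84), miR-1224 (0.79) and miR-148a (0.71). For miR-1895 they were miR-101b (0.92), miR-1904 (0.80) and miR-101a (0.79). For miR-712 the 2 most alike entries were of a virus, mouse cytomegalovirus, mcmv-miR-m88-1 (0.80) and mcmv-miR-M23-1-5p (0.73), followed by miR-25 (0.73).

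Among the mouse entries with neighbouring numbers (miR-680 to miR-721 and miR-1890 to miR-1899) most gave no signal. Of these 45 entries, 26 were called on no array and 4 were tested, 8.89%, against 22.1% of all mouse entries. Those called on all 12 arrays were miR-690 (46.6 to 61.1 units, median 51.1) and miR-697 (21.2 to 38.9 units, median 27.1). The dark minus light difference was negative for all 4 tested, with a median of -0.12 on the log2 scale, and 0 of them were called. All 9 entries described here were called on at least 6 arrays, and since they were chosen partly for their variation nothing is read from that.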

How the data were processed

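Total RNA from 12 pools of mouse liver, labelled with Cy3, was measured on single-colour Agilent miRNA arrays. The deposited intensity of each spot was background-subtracted by Agilent Feature Extraction, version 10.7.3.1 per the file headers and 9.5.3.1 per the submitters' processing notes. Control and outlier spots were left out and the spots of a probe averaged. Arrays were scaled to the 75th percentile of the 157 probes detected on all 12 arrays, a floor of 22.2 units was set (the median over arrays of the lowest detected probe) and log2 taken. The brightest probe stood for an entry. The deposited series value table held the same intensity values. limma 3.58.1 (eBayes with an intensity trend, R 4.3.3) tested 139 entries called on at least 6 arrays, with Benjamini-Hochberg adjustment. Correlations were tested with 100000 permutations. The fits and permutation test were tested on simulated data. Hairpins were folded with ViennaRNA 2.7.2. Members and lists were chosen with earlier results of these data known. Named entries are the 9 members, the 3 most alike for each member never at the floor, miR-122, let-7a and miR-16 as comparators, and number neighbours detected on all arrays; those described near the floor were also compared. Array number limits the precision, and 0 value columns were unmapped. Scaling, background correction, floor, filter, probe, outlier spots, slide and single arrays were varied as alternatives.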

Additional observations from a re-analysis of the deposited data

Results flagged for a closer look

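In all, 3 array values stood far from the other 5 of their phase by Dixon's test on log2 values after the floor, among 18 groups of 6 arrays examined. The dark groups of miR-715 and miR-1897-5p lay wholly at the floor and could not be flagged. Chance alone flags about 5% of groups, but that share does not hold for groups with equal values at the floor. For miR-712 the dark ZT22 array was low, at 4.60 log2 units (24.2 intensity units, the next dark array being at 34.3). For miR-715 the light ZT50 array was high, at 5.30 log2 units (39.5 units, the other 5 light arrays at the floor). With 5 equal values, any array above the floor would have been flagged there. For miR-705 the dark ZT46 array was high, at 5.77 log2 units (54.5 units, the next dark array being at 26.03).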

How the results depend on the processing

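Counts of called entries were 0 in all 5 fits, and changed as follows; the cause was not tested. With normexp background correction (on the median spot signal, since the files hold no mean signal) 1 entry was called for a 24-h rhythm and 1 for clock time, miR-451 both times, and with quantile normalization 1 (miR-148a) for the change of the dark and light difference between cycles. With 1 array left out in turn, rhythm calls ranged from 0 to 1 (1 without ZT58), dark against light calls from 0 to 2 (2 without ZT30: miR-101b and miR-1895) and clock time calls from 0 to 7 (7 without ZT26, miR-1897-5p among them, and 2 without ZT46). The pairs of entries passing on r, 0 of 10 as reported, were 3 of 3 with all-probe scaling, which shifts all entries together, 3 of 10 with normexp, 3 of 15 with the floor at 0.5 times, 1 of 10 with the slide as a block (miR-689 with miR-1895) and 1 of 36 with no floor; on rho these were 3, 3, 4, 2 and 2. Probe pairs passing were 3 of 3, and 6 of 14 with no floor. All other counts, on r and on rho, kept to 0 under the alternatives run. Of 232 values each, the dark minus light difference moved by at least 1 SD in 21, the cycle difference in 16 and the peak-to-trough fold in 40. The sign of dark minus light turned under 9 of 26 alternatives for miR-705 and 7 of 26 for miR-718. With outlier spots kept, miR-705 was read from another of its probes and stood at -0.94. The median of spots, the software's total signal and no floor were chosen after seeing the data. The change of the dark and light difference between cycles could not be fitted on slide 1 alone, where cycle 2 has dark arrays only. No paired analysis was possible because the replicate numbers only name the arrays; arrays 24 h apart were compared through clock time as a factor in the fit between cycles. Signals near the floor limit miR-705, miR-718, miR-715 and miR-1897-5p.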
